A study of Mus musculus with 20 samples.

Results

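Ribosome footprints made with RNase I were compared, gene by gene, with footprints made with micrococcal nuclease (MNase) in mouse embryonic stem cells. The comparison used replicates 1 and 2 of each of 4 groups of genotype and medium, so that every RNase I library was paired with the MNase library of the same group and number. These are 16 of the 20 libraries of the series, 8 for each nuclease, and the MNase libraries numbered 3 have no RNase I partner and entered only an alternative. The groups were eIF2α+/+ (WT) and eIF2αA/A (KI) cells, each in LIF/2i or in LIF for 6 days. The KI cells carry alanine at the regulatory phosphorylation site of the initiation factor subunit eIF2α, and 2i stands for the inhibitors PD0325901 and CHIR99021. All groups shared a serum-free medium with KnockOut Serum Replacement, LIF at 1000 U/mL and cycloheximide in the wash before lysis. Footprints of 25 to 40 nt were taken from pooled monosome fractions. The labels do not say how many clones stand behind a genotype, whether replicates were separate cultures, or whether a pair came from 1 lysate.

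In ribosome profiling a nuclease trims mRNA down to the stretch that each ribosome covers, and these stretches are sequenced and counted. RNase I cuts single-stranded RNA after any base, while MNase depends on calcium and cuts preferentially beside A and U. Both enzymes also reach the RNA of the ribosome itself, and a digestion that is too weak or too strong loses footprints that no longer have the selected length. A gene's share of footprints therefore depends on its translation and also on how its footprints are trimmed, cloned and aligned.

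The libraries held 2127850 to 8374086 counts with MNase and 1965050 to 22916734 with RNase I. Depth was not balanced over the pairs: the RNase I total was 1.13 to 8.02 times the MNase total in the WT pairs, 2.34 and 0.521 times in KI in LIF/2i, and 0.342 and 0.30 times in KI in LIF. Replicates 1 and 2 of a group were equally alike with either enzyme, with Spearman correlations across genes of 0.965 to 0.983 for MNase and 0.964 to 0.987 for RNase I. Stem cell markers were present with both enzymes. The pluripotency factor Pou5f1 ran from 616 to 888 CPM (counts scaled to a common library size, with TMM-adjusted totals) with MNase and from 474 to 684 CPM with RNase I, and the core factor Sox2 from 508 to 1020 and from 410 to 674 CPM. None of the 12 fibroblast and feeder markers tested passed for the nuclease in edgeR or DESeq2 (1 at an unadjusted p under 0.05), and they summed to 0.00251 to 0.0943% of the counts with MNase and 0.00278 to 0.0801% with RNase I. In the pairing check with Y-linked genes, 1 pair stood out: in KI in LIF/2i, replicate 1, Ddx3y was at 68.1 CPM with MNase and 20.5 CPM with RNase I. The counts over all genes are therefore also given without this pair. At lower levels, Eif2s3y differed in KI in LIF, replicate 2, with 0.717 CPM with MNase and 3.4 CPM with RNase I.

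The nuclease changed the counts of many genes by small amounts. Of 12732 genes tested with the pairs as a block, 6001 (47.1%) differed at an adjusted p under 0.05 in edgeR's quasi-likelihood test with Benjamini-Hochberg adjustment. Of these, 3022 (23.7% of the genes tested) were higher with RNase I and 2979 (23.4%) higher with MNase. Without KI in LIF/2i replicate 1 the counts were 2718 and 3047. Without the pairing they were 1998 and 2082. After all libraries were thinned to the smallest total they were 1491 and 1569.

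Large differences were few and lay more often on the MNase side. At least 2-fold higher with RNase I were 170 genes (1.34%), and at least 2-fold higher with MNase were 447 genes (3.51%). Without KI in LIF/2i replicate 1 they were 158 and 561. The median difference over all genes was 0.00224 on the log2 scale, and the middle 80% of the genes lay between -0.62 and 0.49. The sign was the same in all 8 pairs for 3590 of the called genes (59.8%) and in all 4 groups for 5246 (87.4%). Every RNase I library lay above every MNase library for 244 genes and below for 325. Across the 12732 genes the mean difference in WT and that in KI, which share no library, had a Pearson correlation of 0.615 and a Spearman correlation of 0.618, as a description across genes that are not independent replicates.

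The balance shifted with the level of a gene. Among the 1274 genes of lowest mean level, 0.374 to 2.54 CPM, 9.65% were at least 2-fold higher with MNase and 2.04% with RNase I, and the median difference was -0.15 (log2). Among the 1274 genes of highest mean level, 187 to 3200 CPM, the shares were 1.1% and 0.157%, and the median was 0.10. At an equal depth of 1965050 counts, 13970 ± 346 genes had a count with MNase and 13670 ± 408 with RNase I (mean ± SD, n = 8 each). The number was lower with RNase I in 7 of 8 pairs, with a mean difference of -291.6 genes (exact two-sided sign-flip permutation test, p = 0.0234, where 0.00781 is the smallest p that 8 pairs allow). The difference lay mostly in WT, with pairs (MNase and RNase I) of 13888 and 13205, 13808 and 13275, 14416 and 13931, and 14457 and 14159 genes. In KI the pairs were 13509 and 13204, 13612 and 13599, 13910 and 13881, and 14128 and 14141. Whether it differed by genotype was not tested. The share of counts in the 100 highest genes was 14.41 ± 0.539% with MNase and 14.74 ± 0.415% with RNase I, and this difference of 0.3237 percentage points did not pass (exact permutation p = 0.234). Without KI in LIF/2i replicate 1 it was 0.5214 points (exact permutation p = 0.0312).

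**Figure D1:**
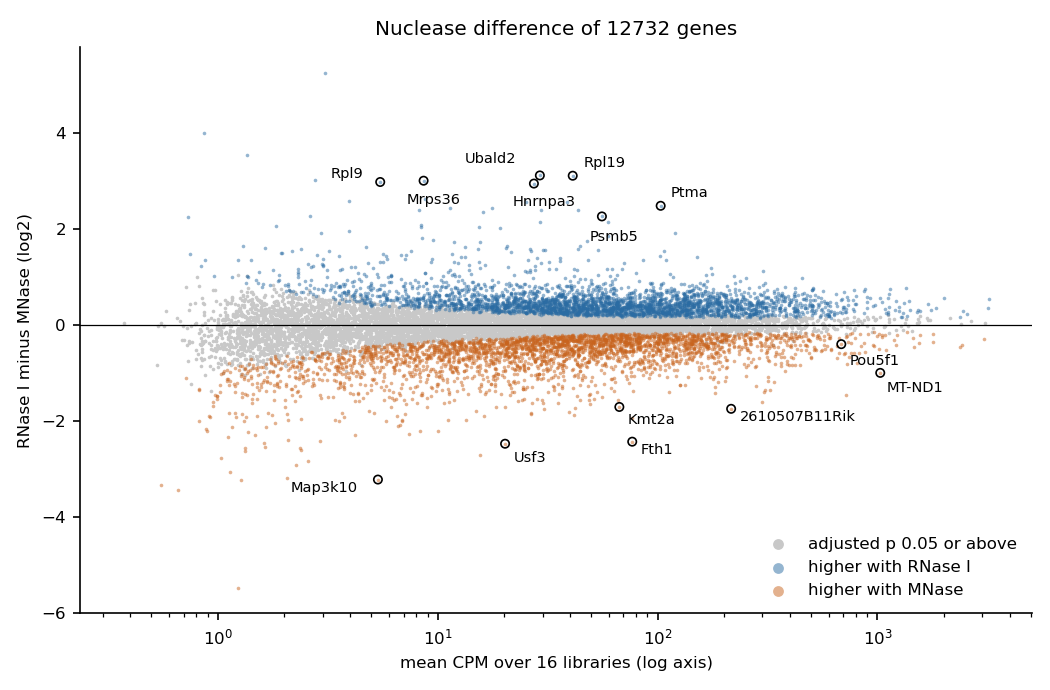
Each of 12732 genes is placed by its mean CPM over 16 libraries (log axis) and its fitted difference, RNase I minus MNase (log2), with blue and orange points past an adjusted p of 0.05. The cloud is centred near 0, with a median of 0.00224, and the circled genes run from Ubald2 and Rpl19, both at 3.11, to Map3k10 at -3.22.

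The largest rises with RNase I, among genes with a mean of at least 5 CPM and 1 sign in 8 pairs, came from different functions, among them ribosomal proteins, RNA binding, ubiquitin-like modifiers and the lysosome. Rpl19, a protein of the large ribosomal subunit, had a lowest, median and highest level of 4.93, 8.33 and 11.6 CPM with MNase and of 44.3, 78.6 and 101 CPM with RNase I, a difference of 3.11 ± 0.16 (log2 ± SE, edgeR adjusted p = 2e-09). The ranges lay far apart, with the lowest RNase I library well above the highest MNase library. Ubald2, which holds a UBA-like domain, went from 1.78, 7.03 and 9.07 CPM to 32.5, 38.8 and 89.0 CPM, a difference of 3.11 ± 0.20 (edgeR adjusted p = 6.2e-09). Hnrnpa3, an RNA-binding protein of the hnRNP A family, went from 3.80, 5.70 and 8.89 CPM to 28.9, 45.3 and 82.2 CPM (2.94 ± 0.17, edgeR adjusted p = 2.5e-09). Neither gene had overlapping libraries. Ptma, the small acidic nuclear protein prothymosin alpha, went from 23.1, 29.6 and 42.2 CPM to 105, 163 and 259 CPM (2.48 ± 0.15, edgeR adjusted p = 3.9e-09).

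The other 8 of the 12 largest rises lay between 2.40 and 3.00 on the log2 scale, and none overlapped. They were Mrps36, annotated as a mitochondrial ribosomal protein (3.00), Rpl9 of the large ribosomal subunit (2.98), the fatty acid carrier Fabp5 (2.62), the ubiquitin-like modifier Sumo2 (2.57), the autophagy protein Gabarapl2 (2.57), the spermine synthase Sms (2.44), the proton pump subunit Atp6v1g1 (2.44) and the lysosomal anchor Lamtor1 (2.40). The catalytic proteasome subunit Psmb5 was among the smallest p values. Its lowest, median and highest levels were 13.6, 19.6 and 23.5 CPM with MNase and 71.3, 89.8 and 134 CPM with RNase I (2.26 ± 0.11, edgeR adjusted p = 2e-09).

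The genes with the largest excess in MNase libraries included kinases, phosphatase regulators, a transcription factor and an iron store. Map3k10, a mixed-lineage kinase, had a lowest, median and highest level of 4.31, 10.7 and 12.2 CPM with MNase and of 0.443, 1.05 and 1.95 CPM with RNase I, a difference of -3.22 ± 0.22 (edgeR adjusted p = 8.8e-09). Usf3, a transcription factor of the USF family, went from 16.9, 37.7 and 59.4 CPM to 3.4, 5.39 and 10.2 CPM (-2.47 ± 0.14, edgeR adjusted p = 2.5e-09). For both genes all MNase libraries lay above all RNase I libraries. Fth1, the heavy chain of ferritin, which stores iron, went from 66.6, 113 and 213 CPM to 15.2, 18.5 and 43.0 CPM (-2.43 ± 0.20, edgeR adjusted p = 7.5e-08). Ppp1r15a, the stress-induced subunit that directs a phosphatase to eIF2α, went from 9.81, 16.9 and 25.3 CPM to 2.20, 3.11 and 5.36 CPM (-2.21 ± 0.16, edgeR adjusted p = 1.5e-08), again without overlap.

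The other 8 of the 12 largest falls were Ppp1r14b, a phosphatase inhibitor (-2.71), the sialyltransferase St6galnac6 (-2.27), the kainate receptor subunit Grik5 (-2.21), the kinase Tesk1 (-2.10), the histone H2ac13 (-2.09), Nkapd1 (-2.0), Tmcc2 (-1.98) and the scaffold protein Whrn (-1.97). Ranges overlapped for Grik5, H2ac13, Tmcc2 and Whrn, although the sign was the same in every pair, which the choice of genes required. The clone gene 2610507B11Rik was among the smallest p values with higher counts: its 8 MNase libraries lay between 234 and 435 CPM and its 8 RNase I libraries between 76.7 and 123 CPM (-1.75 ± 0.10, edgeR adjusted p = 2.5e-09). These 26 genes kept their sign and their side of the threshold in all 15 alternatives, with a highest edgeR or DESeq2 adjusted p of 0.013. They had been chosen by size, p and sign from these same libraries, so this is not independent support.

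**Figure D2:**
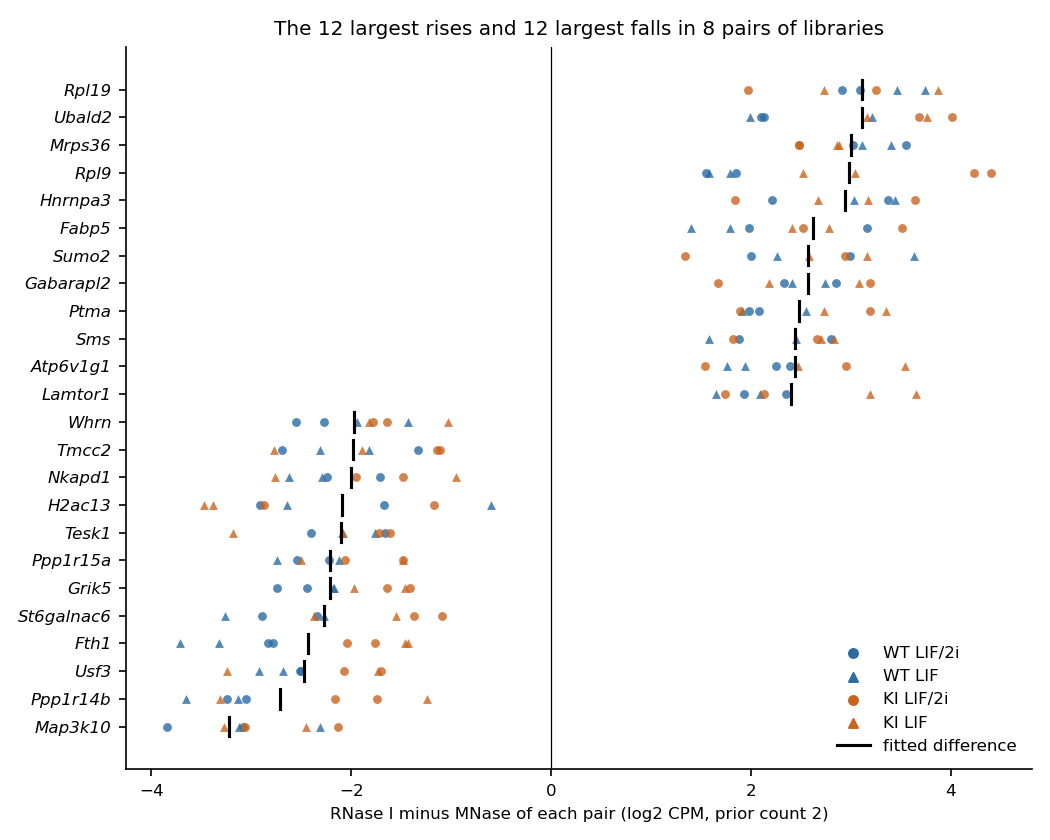
Points are the differences of the 8 single pairs, RNase I minus MNase in log2 CPM with a prior count of 2, for the 12 largest rises and 12 largest falls; colour marks genotype, shape marks medium and bars mark the fitted difference. All 8 points of each gene lie on 1 side of 0, as the choice of genes required. Fitted differences run from 3.11, the rounded value of both Ubald2 and Rpl19, to -3.22 for Map3k10.

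Each list is read against the 23.7% and 23.4% of all tested genes that were higher with RNase I and with MNase. The RNase I share also depended on level, from 3.69% of the 1274 genes of lowest level to 39.6% of the 1274 of highest. Of 75 nuclear-encoded subunits of oxidative phosphorylation, 39 (52.0%) were higher with RNase I and 13 (17.3%) with MNase, with a median difference of 0.21 (log2) against 0.00224 for all genes, and the list's median lay above 0 in 8 of 8 pairs. Cox7c, a small subunit of cytochrome c oxidase, had 10.0, 13.5 and 16.9 CPM with MNase and 41.9, 71.0 and 128 CPM with RNase I (2.39 ± 0.14, edgeR adjusted p = 2.5e-09). The libraries did not overlap. Other subunits went the other way: Ndufa4, also of cytochrome c oxidase, differed by -0.85 ± 0.08 and the complex I subunit Ndufb8 by -0.51 ± 0.07 (edgeR adjusted p = 2.5e-07 and 7.3e-06). Of 20 glycolytic genes, 13 (65.0%) were higher with RNase I and 2 (10.0%) with MNase, with a median of 0.41. The phosphoglycerate mutase Pgam1 rose from a median of 23.4 to 103 CPM (2.15 ± 0.18) and the pyruvate kinase Pkm from 112 to 216 CPM (0.92 ± 0.11), while the aldolase Aldoa fell from 184 to 126 CPM (-0.68 ± 0.11). Of 22 genes of cholesterol synthesis, 12 (54.5%) were higher with RNase I and 2 (9.09%) with MNase. Carriers of the mitochondrial SLC25 family were closer to the share of all genes, with 11 of 37 (29.7%) higher with RNase I and 8 (21.6%) with MNase. The farnesyl diphosphate synthase Fdps rose from a median of 15.6 to 33.6 CPM (1.11 ± 0.11, no overlap), and the isomerase Idi1 fell from 41.0 to 16.6 CPM (-1.13 ± 0.09).

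Lists of protein folding, degradation and tRNA charging also had more members higher with RNase I. Their median levels were high, from 263 CPM for the proteasome to 698 CPM for the cytosolic chaperones, against 27.9 CPM for all genes. Among the 1274 genes of highest level, from 187 CPM, 39.6% were higher with RNase I and 24.6% with MNase. The RNase I shares of the chaperones and the proteasome lay closer to this 39.6% than to the 23.7% of all genes. Of 20 genes of folding in the endoplasmic reticulum, 12 (60.0%) were higher with RNase I and 0 with MNase in edgeR, with a median of 0.28. At an unadjusted p under 0.05 the counts were 13 and 0, and with DESeq2 12 and 0. The lectin chaperone Calr had 643, 881 and 1180 CPM with MNase and 1200, 1330 and 1390 CPM with RNase I, without overlap (0.56 ± 0.08, edgeR adjusted p = 2.3e-05). Of 21 cytosolic chaperones and chaperonin subunits, 9 (42.9%) were higher with RNase I and 2 (9.52%) with MNase. Of 38 proteasome subunits, 18 (47.4%) were higher with RNase I and 4 (10.5%) with MNase, with Psma3 rising from 14.1 to 38.0 CPM (1.54 ± 0.14) and the regulatory subunit Psmd8 falling from 397 to 291 CPM (-0.46 ± 0.06). Of 20 cytosolic tRNA synthetases, 13 (65.0%) were higher with RNase I and 2 (10.0%) with MNase. The phenylalanine enzyme subunit Farsa rose from 137 to 225 CPM (0.69 ± 0.07, no overlap), and the lysine enzyme Kars fell from 518 to 389 CPM (-0.41 ± 0.07, no overlap).

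Of 23 minichromosome maintenance, cohesin and SMC genes, which act in DNA replication and chromosome structure, 13 (56.5%) were higher with RNase I and 1, Smcr8, with MNase. Smcr8 is an autophagy regulator that entered by its name pattern. The helicase subunit Mcm3 rose from 644 to 1100 CPM (0.74 ± 0.08) and Smc1a of the cohesin ring from 182 to 268 CPM (0.63 ± 0.10). Of 25 S phase genes, partly the same members, 13 (52.0%) were higher with RNase I and 3 with MNase, and the flap endonuclease Fen1 rose from 165 to 260 CPM (0.62 ± 0.07). Of 33 kinesins, the motors of microtubules, 12 (36.4%) were higher with RNase I and 5 (15.2%) with MNase.

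Of 78 mitochondrial ribosomal proteins, 28 (35.9%) were higher with RNase I and 10 (12.8%) with MNase. Of 24 TIMM and TOMM proteins of mitochondrial import, 9 (37.5%) were higher with RNase I and 1 (4.17%) with MNase, and of 17 subunits of the vacuolar proton pump 8 (47.1%) and 1 (5.88%). Rab GTPases of vesicle traffic were near the share of all genes on the RNase I side, with 14 of 48 (29.2%), and below it on the MNase side, with 3 (6.25%). Without KI in LIF/2i replicate 1 the Rab counts were 9 and 3. Of 54 F-box proteins, most of them parts of ubiquitin ligases, 18 (33.3%) were higher with RNase I and 10 (18.5%) with MNase. Of 29 laminins and integrins, which build and bind the basement membrane, 11 (37.9%) were higher with RNase I and 1 (3.45%) with MNase. The laminin chain Lamc1 rose from 602 to 989 CPM (0.70 ± 0.10, edgeR adjusted p = 2e-05), though the ranges overlapped. In each of these lists but the SLC25 carriers, where it held in 13, the side with more members stayed the same in all 15 alternatives.

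Within these lists the members differed widely in size. Tomm22, a receptor for proteins entering mitochondria, had 14.9, 21.6 and 28.7 CPM with MNase and 30.1, 35.7 and 38.2 CPM with RNase I (0.71 ± 0.10, edgeR adjusted p = 1.9e-05). Timm23, a channel of the inner membrane, went the other way, from a median of 20.5 to 12.1 CPM (-0.82 ± 0.15, edgeR adjusted p = 0.00017). The libraries lay apart for Tomm22 and overlapped for Timm23. The proton pump subunit Atp6v1f rose from 10.2, 14.7 and 21.9 CPM to 30.3, 38.9 and 60.3 CPM (1.39 ± 0.10, edgeR adjusted p = 1.7e-08), without overlap. The mitochondrial ribosomal protein Mrpl34 rose from 25.3, 48.9 and 58.2 CPM to 70.9, 86.0 and 104 CPM (0.95 ± 0.09, edgeR adjusted p = 3.4e-07), and the GTPase Rab7 of late endosomes from a median of 17.5 to 35.2 CPM (0.97 ± 0.13, edgeR adjusted p = 7.4e-06).

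**Figure D3:**
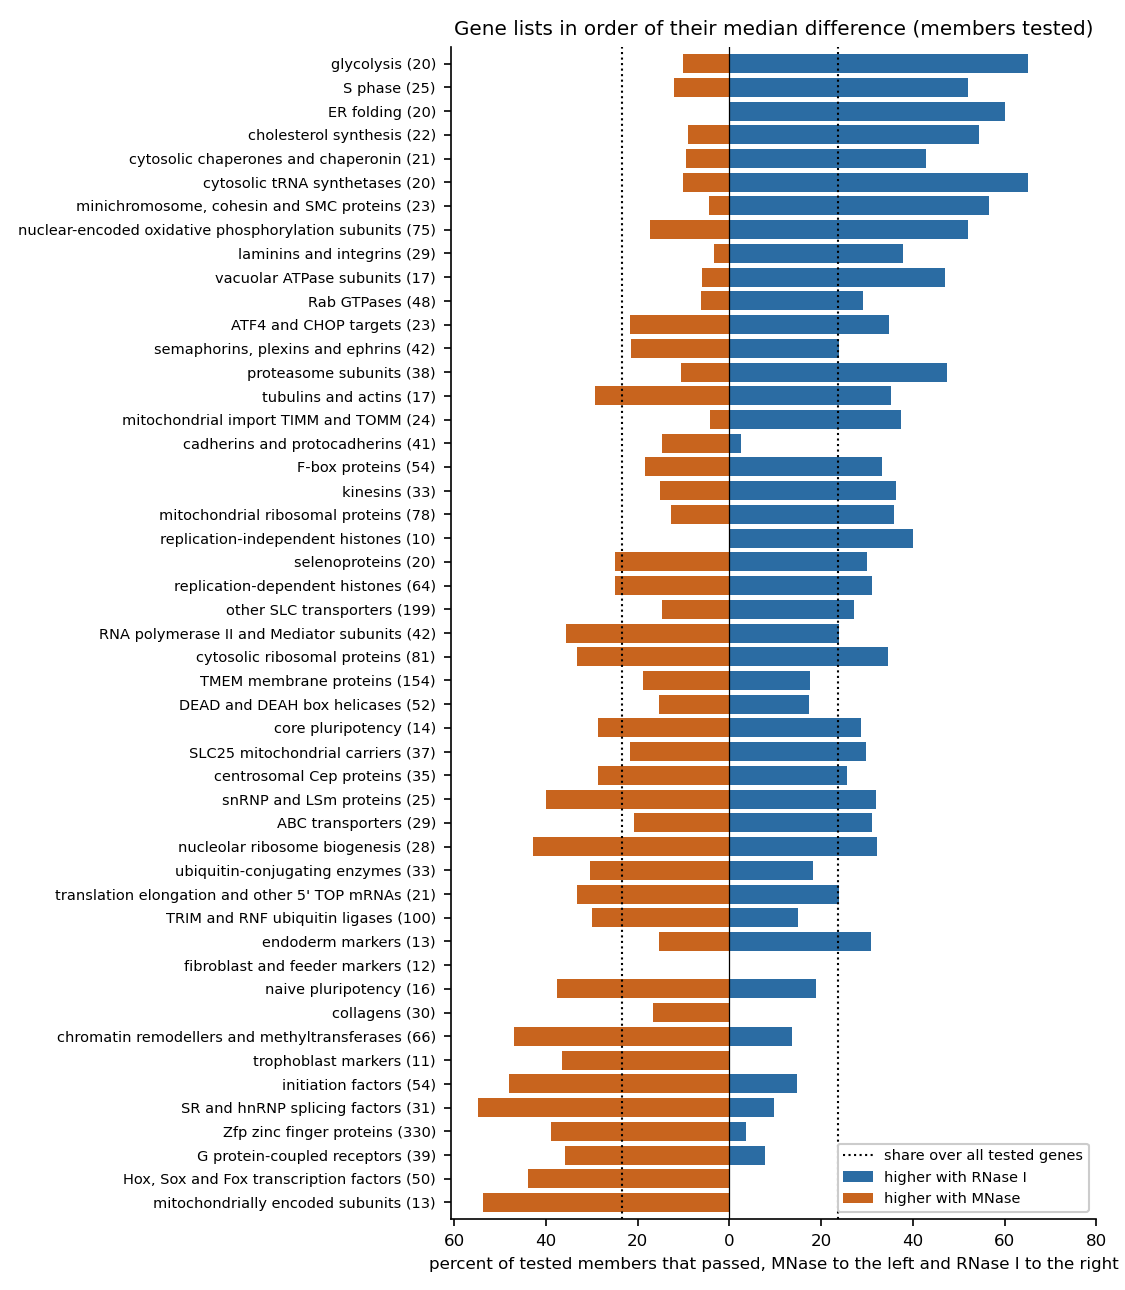
For each list of genes, bars give the percent of its tested members (number in brackets) that were higher with RNase I (right, blue) or with MNase (left, orange); dotted lines give the same over all 12732 genes, 23.7% and 23.4%. Lists are in order of their median difference, from mitochondrially encoded subunits at -0.58 to glycolysis at 0.41.

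The lists of transcription factors had more members higher with MNase. Their median levels were low, 10.3 CPM for Zfp genes and 5.29 CPM for Hox, Sox and Fox factors, against 27.9 CPM for all genes. Of 330 genes named Zfp, most of which encode zinc finger DNA-binding proteins, 128 (38.8%) were higher with MNase and 12 (3.64%) with RNase I. Their median difference was -0.29, below 0 in 8 of 8 pairs. Zfp329 had 10.9, 13.5 and 17.6 CPM with MNase and 2.93, 4.15 and 4.87 CPM with RNase I (-1.71 ± 0.14, edgeR adjusted p = 4e-08). Zfp280b went from 46.1, 55.7 and 74.7 CPM to 18.2, 26.8 and 34.5 CPM (-1.05 ± 0.08, edgeR adjusted p = 4.8e-08), and neither gene overlapped. The opposite was seen for Zfp296, which rose from a median of 121 to 184 CPM (0.60 ± 0.07). Of 50 Hox, Sox and Fox factors, 22 (44.0%) were higher with MNase and 0 with RNase I in edgeR, with a median of -0.39. At an unadjusted p under 0.05 the counts were 24 and 0, and with DESeq2 20 and 0. Sox12 fell from a median of 23.9 to 11.2 CPM (-1.0 ± 0.13).

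Among the factors that maintain stem cells the nucleases disagreed by gene. Nanog went from 555, 1160 and 1430 CPM with MNase to 475, 699 and 1050 CPM with RNase I (-0.56 ± 0.08, edgeR adjusted p = 1.1e-05), and Klf4 from 112, 188 and 258 CPM to 67.3, 102 and 153 CPM (-0.74 ± 0.08, edgeR adjusted p = 1.4e-06). Pou5f1 differed by -0.40 ± 0.06 and Sox2 by -0.50 ± 0.07 (edgeR adjusted p = 4.8e-05 and 2.6e-05). All 4 were lower with RNase I in 8 of 8 pairs, though their ranges overlapped. The surface protein Tdgf1 went the other way, from a median of 32.1 to 62.2 CPM (0.81 ± 0.11), as did the nuclear receptor Nr0b1, from 125 to 199 CPM (0.74 ± 0.10). Esrrb, at 654 and 686 CPM, had a difference of 0.01 ± 0.06 (edgeR adjusted p = 0.90). Of 16 naive pluripotency genes, 6 (37.5%) were higher with MNase and 3 (18.8%) with RNase I, and of 14 core genes 4 (28.6%) on each side. Over all genes the shares were 23.4% with MNase and 23.7% with RNase I, so the core list was near them.

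Of 66 chromatin remodellers and methyltransferases, 31 (47.0%) were higher with MNase and 9 (13.6%) with RNase I, and the median was -0.16. The histone methyltransferase Kmt2a had 68.2, 109 and 123 CPM with MNase and 25.1, 31.2 and 39.4 CPM with RNase I (-1.71 ± 0.10, edgeR adjusted p = 3.8e-09). Setd1b fell from a median of 100 to 36.0 CPM (-1.37 ± 0.09, edgeR adjusted p = 7.9e-09). Ranges did not overlap for either, while the demethylase Kdm5b rose from a median of 692 to 996 CPM (0.57 ± 0.09). The Mediator subunits Med13 (-0.89 ± 0.08) and Med13l (-1.13 ± 0.09) were lower with RNase I and Med17 higher (0.47 ± 0.07).

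Of 31 SR and hnRNP splicing factors, 17 (54.8%) were higher with MNase and 3 (9.68%) with RNase I, and the median was -0.19. Srsf3 had 19.9, 46.8 and 58.3 CPM with MNase and 7.02, 10.6 and 15.8 CPM with RNase I (-1.82 ± 0.15, edgeR adjusted p = 7.5e-08), so the same list held 1 of the largest rises, Hnrnpa3, and a large fall. Other RNA-binding lists were divided. Of 25 snRNP and LSm proteins 10 (40.0%) were higher with MNase and 8 (32.0%) with RNase I, and of 52 DEAD and DEAH box helicases 8 (15.4%) and 9 (17.3%). Of 54 initiation factors, 26 (48.1%) were higher with MNase and 8 (14.8%) with RNase I, and the median was -0.18. Eif2s1, which encodes eIF2α itself, had 102, 122 and 172 CPM with MNase and 49.2, 61.4 and 81.7 CPM with RNase I, without overlap (-0.98 ± 0.07, edgeR adjusted p = 1.7e-08). Eif4b fell from a median of 425 to 199 CPM (-1.08 ± 0.08), and the cap-complex inhibitor Eif4ebp1 from 204 to 102 CPM (-0.94 ± 0.08). The helicases Eif4a1 and Eif4a3 rose, by 1.19 ± 0.17 and 1.14 ± 0.16.

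The stress regulator Atf4, whose translation depends on upstream reading frames, went from 80.4, 120 and 264 CPM with MNase to 46.5, 62.1 and 153 CPM with RNase I (-0.84 ± 0.09, edgeR adjusted p = 1.2e-06). It was lower in 8 of 8 pairs. The list of 23 ATF4 and CHOP targets, which counts Atf4 itself, was divided. In it 8 (34.8%) were higher with RNase I, among them the proline synthesis enzyme Pycr1 (0.64 ± 0.09). With MNase 5 (21.7%) were higher, among them Atf4 and Ppp1r15a. Over all genes the shares were 23.7% and 23.4%. The poly(A)-binding protein Pabpc1 fell from a median of 429 to 166 CPM (-1.35 ± 0.09, no overlap), and the elongation factor Eef2 from 1660 to 1250 CPM (-0.46 ± 0.06, no overlap).

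Of 39 G protein-coupled receptors, with a low median level of 6.14 CPM, 14 (35.9%) were higher with MNase and 3 (7.69%) with RNase I. The adhesion receptor Adgrl1 had 46.5, 75.6 and 125 CPM with MNase and 20.9, 26.0 and 43.3 CPM with RNase I (-1.49 ± 0.10, edgeR adjusted p = 5.5e-09). Of 100 TRIM and RNF ubiquitin ligases, 30 (30.0%) were higher with MNase and 15 (15.0%) with RNase I, against 23.4% and 23.7% of all genes. The ligase Rnf10 had 308, 436 and 603 CPM with MNase and 92.9, 150 and 192 CPM with RNase I, without overlap (-1.61 ± 0.11, edgeR adjusted p = 8.5e-09). The list of tubulins and actins was divided, with 6 of 17 (35.3%) higher with RNase I and 5 (29.4%) with MNase. Its MNase side includes Actn4, an actinin that is not itself an actin. Tubb4b rose from a median of 48.7 to 105 CPM (1.09 ± 0.09) and Tuba1b fell from 191 to 106 CPM (-0.87 ± 0.14). Zfp genes, Hox, Sox and Fox factors, chromatin genes, splicing factors, initiation factors, receptors and ubiquitin ligases each kept more members on the MNase side in all 15 alternatives.

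Cytosolic ribosomal proteins were split almost evenly by count, but their large differences lay more often on the RNase I side. Of 81, 28 (34.6%) were higher with RNase I and 27 (33.3%) with MNase, against 23.7% and 23.4% of all genes. At least 2-fold higher were 16 with RNase I and 6 with MNase, against 1.34% and 3.51% of all genes. The order of the called counts held in 10 of 15 alternatives. Rpl3 had 5.44, 12.2 and 13.7 CPM with MNase and 31.7, 45.1 and 67.1 CPM with RNase I (2.15 ± 0.15, edgeR adjusted p = 1.2e-08). Rps6 went the other way, from 62.9, 81 and 115 CPM to 28.2, 37.2 and 58.0 CPM (-1.13 ± 0.10, edgeR adjusted p = 1.2e-07). Neither gene overlapped between the enzymes. Rpl4 fell as well, from a median of 919 to 493 CPM (-0.82 ± 0.08), and Rpl38 rose from 46.5 to 168 CPM (1.91 ± 0.15). The 64 replication-dependent histones, 20 (31.2%) higher with RNase I and 16 (25.0%) with MNase, were split too, with H2bc21 at 1.3 ± 0.11 and H4c2 at -1.09 ± 0.11. Histone genes and ribosomal protein pseudogenes are near-identical copies. No source used here says how reads with several matches were counted, so the single-gene values of these families are uncertain.

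Genes with pseudogenes of the same name were frequent among the large rises with RNase I. This grouping was chosen after the values were seen and rests on names ending in -ps in the RefSeq gene table, which does not list every pseudogene. Of the 12732 genes, 300 (2.36%) had such a pseudogene. They made up 44 of the 170 genes at least 2-fold higher with RNase I (25.9%) and 15 of the 447 at least 2-fold higher with MNase (3.36%). Put the other way, 1.01% of 12432 genes without such a pseudogene, 11.1% of 198 genes with 1 and 21.6% of 102 genes with 2 or more were at least 2-fold higher with RNase I. The shares at least 2-fold higher with MNase were 3.47%, 4.55% and 5.88%.

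The pattern was not limited to ribosomal proteins. With cytosolic and mitochondrial ribosomal proteins left out, 28 of 235 genes with such a pseudogene (11.9%) and 123 of 12338 without (0.997%) were at least 2-fold higher with RNase I. Examples were the detoxifying enzyme Glo1, which went from 6.88, 9.11 and 12.7 CPM to 33.1, 51.2 and 64.3 CPM (2.40 ± 0.14, edgeR adjusted p = 3.8e-09), the histone deacetylase Hdac1, from a median of 14.0 to 43.2 CPM (1.57 ± 0.14), and the adaptor Ywhaq, from 6.13 to 20.7 CPM (1.73 ± 0.16). Within the cytosolic ribosomal proteins the share was 15 of 61 with and 1 of 20 without such a pseudogene. Some genes with many such pseudogenes went the other way: Rpl7a, with 14 pseudogenes of its name, differed by -1.40 ± 0.18 and Rps12, with 23, by -1.18 ± 0.21. Whether shared reads have a part in these differences was not tested.

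**Figure D4:**
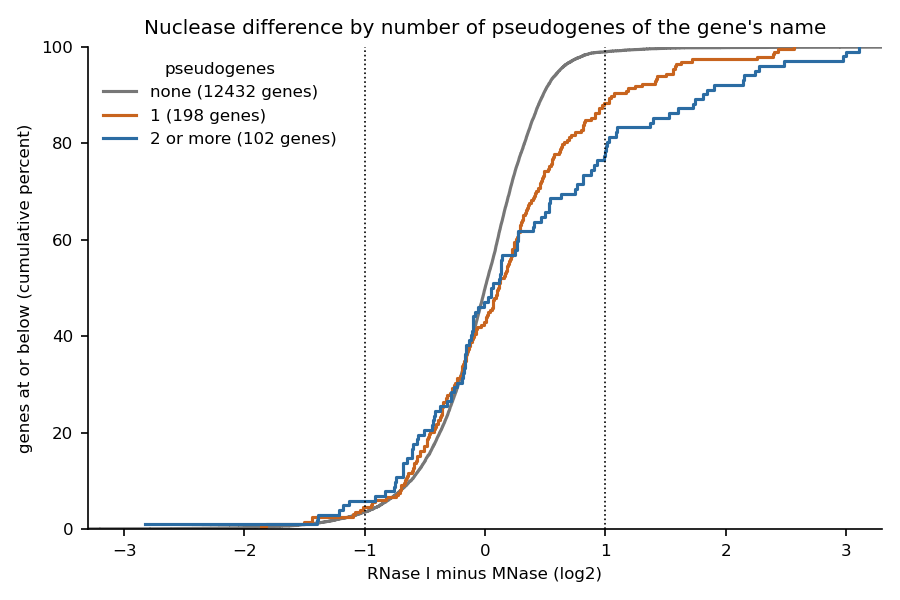
Curves give the cumulative percent of genes at or below a difference, RNase I minus MNase (log2), for genes with no pseudogene of their name (12432), 1 (198) or 2 or more (102); dotted lines mark 2-fold. The right tails part: 1.01%, 11.1% and 21.6% of the genes were at least 2-fold higher with RNase I.

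The nuclease difference itself depended on genotype. In the fit with interaction terms, 626 genes (4.92%) had a higher difference, RNase I minus MNase, in KI than in WT and 1162 (9.13%) a lower one. With library totals in place of TMM the split was 973 and 736. Of the 1788 genes, 992 had the same sign in both genotypes, 854 of these with the larger size in WT, and 796 had opposite signs. The count was 2 without the pairing (1347 at an unadjusted p under 0.05), 228 after thinning, 1714 without KI in LIF/2i replicate 1, and 757 or 706 without replicate 1 or replicate 2 of WT in LIF/2i. Among the 1788 genes were Ddx3y and Uty, 2 of the Y-linked genes of the pairing check, with a lower difference in KI. Without KI in LIF/2i replicate 1 their values were -0.24 and -0.84 (log2). Neither gene passed without the pairing (edgeR adjusted p = 0.88 and 0.90) or after thinning (edgeR adjusted p = 0.76 and 0.39). Ddx3y also did not pass with DESeq2 (adjusted p = 0.73). The depth ratio of the pairs also differed by genotype, as given above, and its part was not tested.

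All 13 mitochondrially encoded subunits of the respiratory chain, which are made by the ribosomes inside mitochondria, passed the test of this interaction. Over all pairs, 7 of them were higher with MNase and 0 with RNase I in edgeR (8 and 0 at an unadjusted p under 0.05, and 3 and 0 with DESeq2). Their summed share of counts in WT was 0.534 to 0.914% with MNase and 0.234 to 0.333% with RNase I. In KI it was 0.291 to 0.447% with MNase and 0.225 to 0.598% with RNase I. In WT the RNase I share was the lower in 4 of 4 pairs, while in KI it was the higher in 3 of 4 pairs. The list's median difference was -1.28 in WT in LIF/2i and -0.98 in WT in LIF, against -0.03 and 0.39 in KI in LIF/2i and in LIF.

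Single subunits show the size of the shift. In WT, MT-CO2 of cytochrome c oxidase was at 33.8 to 80.5 CPM with MNase and at 10.9 to 18.5 CPM with RNase I. In KI it was at 2.47 to 24.4 CPM with MNase and 4.89 to 15.5 CPM with RNase I, so the WT ranges lay apart and the KI ranges overlapped. The difference in KI minus that in WT was 2.59 ± 0.34 (edgeR adjusted p = 0.0001). It was 2.39 ± 0.27 for MT-ATP6 of the ATP synthase, 2.20 ± 0.30 for MT-CO3 and 1.47 ± 0.13 for MT-CO1 (edgeR adjusted p = 3.2e-05, 0.00012 and 6.7e-06). MT-ND1 of complex I had negative differences in both genotypes, -1.57 in WT and -0.42 in KI. Without KI in LIF/2i replicate 1, 11 of the 13 passed. Without the pairing none of the 13 passed (edgeR adjusted p = 0.081 to 0.49), with values between 1.13 and 2.61. After thinning 10 of 13 passed, without MT-ND3, MT-ND4L and MT-CO2, and all 13 values stayed above 0 in each alternative run for this interaction, except that DESeq2 gave an adjusted p, and so a value, for 11.

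**Figure D5:**
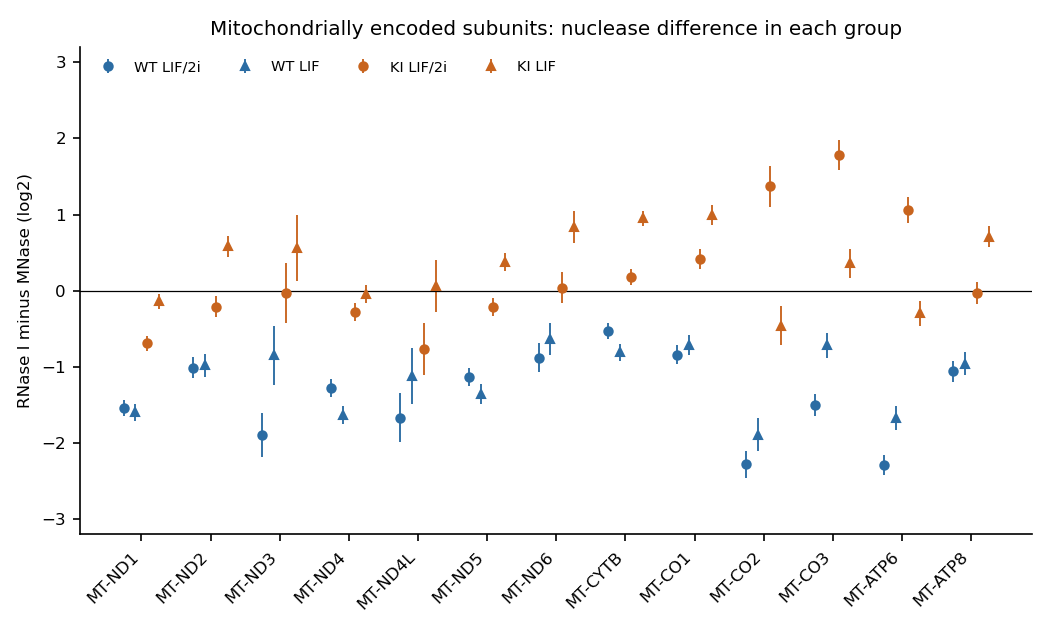
Points give the difference, RNase I minus MNase (log2), of each mitochondrially encoded subunit in each group, with SE bars from edgeR and 2 pairs a group; blue is WT, orange is KI, circles are LIF/2i and triangles LIF. All 13 WT means lie below 0, and 10 of 13 KI means lie above 0.

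Other lists shifted with genotype as well. They are read against the 4.92% of all tested genes with a higher and the 9.13% with a lower difference in KI. Without the pairing 2 of 12732 genes passed this interaction. Among 81 cytosolic ribosomal proteins 26 had a higher and 3 a lower difference in KI, with a median of -0.24 in WT and 0.27 in KI. Among 64 replication-dependent histones the counts were 27 and 1. In 4 of the lists with more members higher with RNase I the difference was lower in KI for 15 of 38 proteasome subunits, 10 of 20 endoplasmic reticulum folding genes, 10 of 20 tRNA synthetases and 14 of 23 minichromosome, cohesin and SMC genes, and higher for 0 of each in edgeR (1, 1, 0 and 0 at an unadjusted p under 0.05, and 0 of each with DESeq2). The folding genes had a median of 0.44 in WT and 0.11 in KI. Zfp genes had -0.09 in WT and -0.37 in KI, with 50 of 330 lower and 7 higher. Mitochondrial ribosomal proteins were at 0.11 and 0.14, oxidative phosphorylation subunits at 0.17 and 0.22, and glycolytic genes at 0.56 and 0.31, above 0 in both genotypes.

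Beyond the mitochondrial genes, the largest single shifts upward in KI were Rpl9, from 1.80 in WT to 4.11 in KI (2.33 ± 0.51, edgeR adjusted p = 0.0052), and the tropomyosin Tpm3, from 0.90 to 3.16 (2.24 ± 0.43, edgeR adjusted p = 0.0018). The largest shift downward was that of Cyp1a1, a cytochrome P450 induced through the aryl hydrocarbon receptor (-3.80 ± 0.84, edgeR adjusted p = 0.0054). It stood at 13.7 and 62.2 CPM in the MNase libraries of KI in LIF/2i and between 0 and 2.92 CPM in the other 14 libraries. None of these 3 passed without the pairing (edgeR adjusted p = 0.12 to 0.43) or after thinning (0.26 to 0.33), nor did Rpl9 and Cyp1a1 without replicate 2 of WT in LIF/2i (0.075 and 0.088). Ferritin's Fth1 had negative differences in both genotypes, -3.18 in WT and -1.69 in KI.

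By medium, 1 gene passed (0.00785%), with 1281 at an unadjusted p under 0.05. It was Acta2, smooth muscle actin and a marker on the fibroblast list, whose difference in LIF minus that in LIF/2i was -1.40 ± 0.20 (edgeR adjusted p = 0.012). Its level ran from 3.52 to 14.9 CPM with MNase and from 10.7 to 15.8 CPM with RNase I in LIF/2i, and from 33.4 to 191 and from 22.6 to 142 CPM in LIF. Without the pairing it did not pass (edgeR adjusted p = 1.0). The count by medium was 0 without the pairing, 8 with DESeq2, 148 without the filter on low counts and 1 to 35 when single pairs were left out, with 35 without replicate 2 of KI in LIF/2i.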

How the data were processed

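The authors deposited 1 table of raw counts of footprints per gene, with whole numbers for 22416 gene names in 20 libraries. The tools named are UMI-tools 1.0.1, Bowtie 1.3.0 and cutadapt 3.4, per the submitters' processing notes. Linkers carried molecular identifiers, per the labels' protocols. No source used here names the genome build or the treatment of reads with several matches. Names were given mouse spelling through the RefSeq gene table of GRCm38.p6 (21755 by symbol, 91 by synonym, 570 kept as written).

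The 16 counts columns were fitted with edgeR 4.0.16 (limma 3.58.1, R 4.3.3): filterByExpr, TMM, quasi-likelihood tests, Benjamini-Hochberg adjustment over all genes at 0.05, and a block for the pair. All tests were two-sided. A further fit added nuclease by genotype and nuclease by medium. CPM use TMM-adjusted totals. Same-numbered libraries deviated together, with correlations across genes of the replicate 1 minus replicate 2 difference between the enzymes of 0.486 to 0.711 in the 4 groups. The biological coefficient of variation was 0.123 with the block and 0.215 without. The labels do not say that replicates are separate cultures, and p-values cover only the spread between these libraries. The Y-linked Ddx3y differed between replicates 1 and 2 of each group with both enzymes, as with MNase in WT in LIF/2i (134 and 18.7 CPM).

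The rule for naming genes required a passing adjusted p. Where a gene was picked by its size or p value among all genes, it also required at least 5 CPM on average and 1 sign in 8 pairs. It asked neither of list members, and no common sign of interaction genes. Timm23, for example, was lower with RNase I in 7 pairs and higher in 1. It took the 12 largest rises, the 12 largest falls, the 4 smallest p values and up to 3 members a side from each list. It added the 4 largest genes a side for each interaction and the Y-linked genes. Other mitochondrially encoded genes, stem cell markers and 2-fold genes with a pseudogene of their name were named after their values were seen. Members, lists and rules were chosen with earlier results of these data known. Lists are described by counts and medians, with no test. The script was tested on simulated data. Alternatives were no pairing, library totals, no filter, thinning, DESeq2 1.42.0, all 20 libraries and leaving out each pair, and, chosen after seeing the data, interaction terms in the fit of the overall difference. Composition of coding sequences was not analysed here.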

Additional observations from a re-analysis of the deposited data

Results flagged for a closer look

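For the genes named for an interaction and the mitochondrially encoded genes, the nuclease difference was not the same in the genotypes or media, by edgeR's interaction test. For the mitochondrially encoded genes the difference in KI minus that in WT was 1.15 for MT-ND1, 1.17 for MT-ND2, 1.68 for MT-ND3, 1.29 for MT-ND4, 1.02 for MT-ND4L, 1.33 for MT-ND5 and 1.18 for MT-ND6 on the log2 scale. It was 1.23 for MT-CYTB, 1.47 for MT-CO1, 2.59 for MT-CO2, 2.20 for MT-CO3, 2.39 for MT-ATP6 and 1.34 for MT-ATP8. MT-ND4L was the least firm, with an edgeR adjusted p of 0.048 that rose above 0.05 in 6 of the 8 fits that left out 1 pair.

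Among other genes it was 2.33 for Rpl9, 2.24 for Tpm3, -3.80 for Cyp1a1, -2.10 for 1700009N14Rik, -1.73 for the secreted growth factor carrier Fgfbp1 and -1.43 for the activin receptor Acvr2a. For Acta2 the difference in LIF minus that in LIF/2i was -1.40. None of these 20 values passed without the pairing of libraries. The 47 sets of 8 pair differences that were examined held 0 pairs far from the other 7.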

How the results depend on the processing

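The count of genes higher with RNase I, 3022, was 1998 without the replicate block and 1491 after thinning to the smallest library, and that higher with MNase, 2979, was 2082 and 1569. Thinning leaves fewer reads and 11765 genes tested. The nuclease by genotype count, 1788, was 2 without the block and 228 after thinning, and that by medium, 1, was 0 and 0, 3 with library totals, 8 with DESeq2 and 148 without the filter on low counts. Leaving out each pair gave 2528 to 3186 genes higher with RNase I, 2645 to 3061 higher with MNase, 158 to 181 and 482 to 561 at least 2-fold, 706 to 1903 by genotype and 1 to 35 by medium. The 2 lowest counts by genotype, 757 and 706, came without WT in LIF/2i replicate 1 and replicate 2. The difference in genes detected ranged from -335.1 to -235.7, and that in the share of the 100 highest genes from 0.1914 to 0.5214 percentage points, the last without KI in LIF/2i replicate 1 (exact permutation p = 0.0312). Interaction terms in the overall fit, chosen after seeing the data, gave 3491 and 3285 genes. All 20 libraries without pairing gave 2476 and 2328.

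For the named genes, 4881 values of the nuclease difference under these alternatives stayed on their side of the threshold, 199 fell below it and 17 rose above it. For genes in the interaction by genotype the numbers were 242, 46 and 3, with 8 left without a DESeq2 adjusted p. Of the list medians, 782 moved by no more than the spread between pairs and 12 by more. A further 1, with a main value beyond that spread, changed sign: RNA polymerase II and Mediator subunits, at -0.0489 after thinning. Changes of sign in medians that lay within their spread were not counted. Rps13, 1 of the 44 genes with a pseudogene, lost its call without the block, with thinning, with DESeq2 and without either pair of KI in LIF/2i, and Ncoa4 and Tmed10 with thinning. The cause of these changes was not tested. Fewer genes were called at low level: of the lowest 1274 genes by level 3.69% and 14.8% were called higher with RNase I and MNase, and of the highest 1274 genes 39.6% and 24.6%.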
